A study of Caenorhabditis elegans with 2 samples.

Results

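The peaks described here were 542 AHA-1 peak calls that lay on the autosomes, outside every protein-coding gene and away from every protein-coding start. The pooled list they come from is labelled as peaks and background, so an entry, called a peak here, need not be a bound site. Of the 542, 92 are in the deposited list of reproducible peaks, and 118 were ranked 3000 or better in neither replicate. They were chosen by the peak signal: the 3000 strongest of the 30000 peaks called on the pooled replicates were taken, peaks on chromosome X were left out, and a peak was kept when its summit fell in no protein-coding gene and in no window from 1000 bp upstream to 500 bp downstream of a protein-coding start. Of the other 2458 peaks among the 3000, 900 had a summit in 1 promoter window, 328 in at least 2 promoter windows, 571 in a gene but in no window, and 659 lay on chromosome X. The same position rule applied to the weaker peaks, ranked 3001 to 30000, gave 4866 autosomal intergenic peaks, which serve as the comparison below.

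The study mapped AHA-1 by chromatin immunoprecipitation and sequencing in whole Caenorhabditis elegans larvae at stage L4, with males and females pooled. Both biological replicates came from strain OP124, unc-119(ed3) III; wgIs124, in which an integrated transgene carries eGFP-tagged aha-1, and the antibody is labelled aha-1. There was 1 group of 2 replicates and no second condition, and the control library was not analysed here. The labels give DNA fragments of 150 to 350 bp and do not state the number of animals, the level of the transgene or the tissue from which a peak came. The deposited peak lists hold no read counts, so the depth behind each peak is unknown, and a peak's signal is the caller's own value, which orders peaks inside 1 list and is not compared between lists.

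AHA-1 corresponds to ARNT of mammals, and both belong to the transcription factors that carry basic helix-loop-helix and PAS domains. It binds DNA as a dimer with another protein of the same family, among them HIF-1, the factor stabilised in low oxygen, AHR-1, the orthologue of the aryl hydrocarbon receptor, and CKY-1. The dimer of HIF-1 and ARNT is known from mammals to bind ACGTG and GCGTG, written together as RCGTG, the core of the hypoxia response element. EGL-9 hydroxylates HIF-1 and so sends it to degradation, and the egl-9 gene is itself a known target of HIF-1 in worms.

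The strongest members are shown first by their sequence, since they carry the letters that the later counts refer to. Each line gives the summit base and 50 bases on either side, read 5′ to 3′ on the plus strand of the RefSeq WBcel235 (ce11) genome, and capitals mark a core on either strand, so that CACGT and CACGC are ACGTG and GCGTG of the minus strand. The member upstream of egl-9 was the strongest of all 30000 peaks (V:10466733-10466833).
egl-9: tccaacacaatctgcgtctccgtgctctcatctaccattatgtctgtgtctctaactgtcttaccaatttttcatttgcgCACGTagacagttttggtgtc
Members upstream of pck-1, the gene of phosphoenolpyruvate carboxykinase, an enzyme of gluconeogenesis (III:67213-67313), tpi-1, which encodes the glycolytic enzyme triosephosphate isomerase (II:12040346-12040446), and nhr-138, which encodes a nuclear hormone receptor (IV:9718457-9718557), were the next strongest and each held at least 1 core.
pck-1: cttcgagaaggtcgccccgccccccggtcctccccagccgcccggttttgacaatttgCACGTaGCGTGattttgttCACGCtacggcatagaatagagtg
tpi-1: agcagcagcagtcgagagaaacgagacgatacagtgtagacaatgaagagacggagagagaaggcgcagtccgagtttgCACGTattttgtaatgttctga
nhr-138: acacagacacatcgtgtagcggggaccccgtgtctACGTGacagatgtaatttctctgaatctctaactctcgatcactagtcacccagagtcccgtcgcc

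The next set shows cores in other settings. The member between gdh-1 and tgt-1 (IV:11956456-11956556) and the member between T04C4.3 and fnip-2 (IV:2219603-2219703) hold the palindrome CACGTG, which reads as a core on both strands and was counted as 2 cores. The members at pyc-1 (V:11824249-11824349), cysl-3 (V:3777146-3777246), mml-1 (III:7376569-7376669) and ldh-1 (II:11722315-11722415) hold 1 core within 16 bp of the summit.
gdh-1/tgt-1: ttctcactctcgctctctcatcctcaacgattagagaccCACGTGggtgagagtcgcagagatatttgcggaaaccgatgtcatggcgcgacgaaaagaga
T04C4.3/fnip-2: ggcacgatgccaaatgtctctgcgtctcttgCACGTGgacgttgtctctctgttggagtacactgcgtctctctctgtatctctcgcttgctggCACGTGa
pyc-1: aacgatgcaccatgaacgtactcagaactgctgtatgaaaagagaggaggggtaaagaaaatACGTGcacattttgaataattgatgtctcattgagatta
cysl-3: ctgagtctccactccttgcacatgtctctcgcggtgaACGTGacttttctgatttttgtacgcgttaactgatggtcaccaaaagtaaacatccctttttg
mml-1: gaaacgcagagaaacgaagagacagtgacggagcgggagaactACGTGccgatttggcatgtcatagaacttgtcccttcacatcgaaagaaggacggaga
ldh-1: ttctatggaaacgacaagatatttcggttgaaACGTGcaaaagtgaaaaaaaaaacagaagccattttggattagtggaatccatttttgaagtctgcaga

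Strong members without a core are shown for contrast. The member upstream of hif-1 (V:20778362-20778462), the member upstream of cysl-2 (II:14496899-14496999) and the member inside sls-2.2, a gene for the spliced leader SL2 RNA (II:5543556-5543656), had no core within 50 bp of the summit.
hif-1: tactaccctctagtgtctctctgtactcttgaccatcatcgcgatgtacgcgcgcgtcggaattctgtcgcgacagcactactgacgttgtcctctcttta
cysl-2: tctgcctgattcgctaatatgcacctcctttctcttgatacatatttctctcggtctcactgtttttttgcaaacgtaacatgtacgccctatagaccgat
sls-2.2: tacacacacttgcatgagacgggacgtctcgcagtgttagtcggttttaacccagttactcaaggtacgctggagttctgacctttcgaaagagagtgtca

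Genes of the hypoxia pathway flanked several of the strongest members. The member 1734 bp upstream of egl-9 had a signal of 368 in the pooled list, 162 in replicate 1 and 208 in replicate 2, and it was ranked 1 in all 3 lists. Its summit lay inside the annotated non-coding RNA genes F22E12.9 and F22E12.10, between chw-1, which encodes a small GTPase, and egl-9. A pair of weaker members lay farther upstream of egl-9, at 3417 bp with a pooled signal of 14.0 and at 3648 bp with 15.5. The latter pair overlapped a single peak in each replicate, ranked 4188 in replicate 1 and 1543 in replicate 2.

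The gene hif-1 itself had a member 1995 bp upstream, with a signal of 57.5 in the pooled list at rank 62, of 23.4 at rank 116 in replicate 1 and of 34.3 at rank 59 in replicate 2. A second member, 2667 bp upstream of hif-1, had a pooled signal of 13.7, was ranked 1775 in replicate 2 and overlapped no peak of replicate 1. The ferritin gene ftn-2, which encodes an iron storage protein, had a member 1233 bp upstream with a pooled signal of 61.1 at rank 56. That peak was ranked 133 in replicate 1 and 39 in replicate 2 and held 2 cores. The cyanoalanine synthase gene cysl-2, a known target of HIF-1 in worms, had members 2498 bp upstream, at rank 130 with a signal of 43.2, and 1108 bp upstream, at rank 623 with 23.4. The former also lay 1077 bp upstream of dhs-8, which encodes a dehydrogenase, so that the site stands between the starts of both genes. The member 1060 bp upstream of cysl-3 had a pooled signal of 34.1 and was ranked 83 in replicate 1 but 2845 in replicate 2.

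Counted over a list of hypoxia pathway genes and known targets, 8 of 19 autosomal genes flanked a member (42.1%), namely egl-9, hif-1, ftn-2, cysl-2, cysl-3, sqrd-1, nhr-46 and swan-1. The same share over all 17242 autosomal protein-coding genes was 847 (4.91%). Counted only over genes that stand next to sequence in which a peak could pass the position rule, the shares were 8 of 16 (50%) and 847 of 10940 (7.74%). These genes were listed with earlier results of these data known, so the share is a description, and a flanking gene need not be regulated from the site. The sqrd-1 member, at rank 1103, lay 684 bp beyond the gene's 3′ end, inside a tRNA gene. The 31 bases at that summit occur at 30 places in the genome, and how reads from such places were aligned is not stated in the labels.

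Among the autosomal genes for bHLH-PAS proteins, hif-1 flanked a member, and aha-1, ahr-1, cky-1 and hlh-34 did not. Nor did lin-42, kept in the same list of 6 genes, whose product has PAS domains without the basic helix-loop-helix. No member lay within 25 kb of aha-1, the gene of the tagged protein, or of unc-119, the gene mutated in the strain. Of 26 genes for other bHLH proteins, mml-1 and hlh-11 flanked a member. MML-1 is the worm orthologue of the Mondo family, a glucose-responsive regulator in mammals, and the member 1888 bp upstream of its gene had a pooled signal of 34.0, with 24.5 at rank 99 in replicate 1 and 14.5 at rank 643 in replicate 2.

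Enzymes of central carbon metabolism formed another list with a high share. Of 35 autosomal genes, 7 flanked a member (20%), or 7 of the 16 that stand next to sequence that passes the rule (43.8%). The nearest upstream members of pck-1, pyk-1, idh-1, tpi-1, pyc-1 and ldh-1 lay 1003 to 1839 bp from the gene. Those of egl-9, ftn-2, hif-1, cysl-2, cysl-3 and swan-1 on the hypoxia list lay at 1060 to 1995 bp. A window of 2000 bp upstream would bar all of these, though tpi-1, egl-9 and hif-1 also had weaker members farther out. The list shares were not recounted with such a window. The member 1003 bp upstream of pck-1 had a signal of 163 in the pooled list at rank 4, 83.4 at rank 6 in replicate 1 and 81.9 at rank 2 in replicate 2. The member 1257 bp upstream of tpi-1 had a pooled signal of 118, with 57.2 at rank 11 in replicate 1 and 62.0 at rank 13 in replicate 2. The member 1770 bp upstream of pyc-1, which encodes pyruvate carboxylase, had a pooled signal of 43.8 and stood much higher in replicate 2, at rank 81, than in replicate 1, at rank 379.

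The member 1839 bp upstream of ldh-1, which encodes lactate dehydrogenase, had a pooled signal of 22.7 at rank 670 and was ranked 1381 and 1565 in the replicates. Of the remaining carbon genes, fbp-1 (fructose-1,6-bisphosphatase), pyk-1 (pyruvate kinase) and idh-1 (isocitrate dehydrogenase) flanked members with pooled signals of 13.4 to 16.2. Their replicate ranks were unequal: the pyk-1 member was ranked 19381 in replicate 1 and 2392 in replicate 2, and the idh-1 member 3044 and 23052.

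The list of bHLH-PAS genes and lin-42 gave 1 of 3 (33.3%), through hif-1, which is also on the hypoxia list. The other lists lay nearer to the share over all genes that stand next to sequence that passes the rule. Nuclear hormone receptor genes gave 17 of 181 (9.39%), genes named as homeodomain factors 7 of 49 (14.3%), ribosomal protein genes 3 of 31 (9.68%), neuropeptide and insulin-like genes 7 of 94 (7.45%), genes of insulin and stress signalling 2 of 15 (13.3%), and genes with collagen and dpy names 7 of 100 (7%). The last count includes dpy-19, which does not encode a collagen. Large families whose members were often tandemly duplicated had low shares: chemoreceptor genes 17 of 945 (1.80%), F-box and MATH genes 2 of 252 (0.794%), C-type lectins 4 of 161 (2.48%) and genes of cytochrome P450s, UDP-glucuronosyltransferases and glutathione S-transferases 3 of 110 (2.73%). No histone gene of 44 flanked a member.

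**Figure D1:**
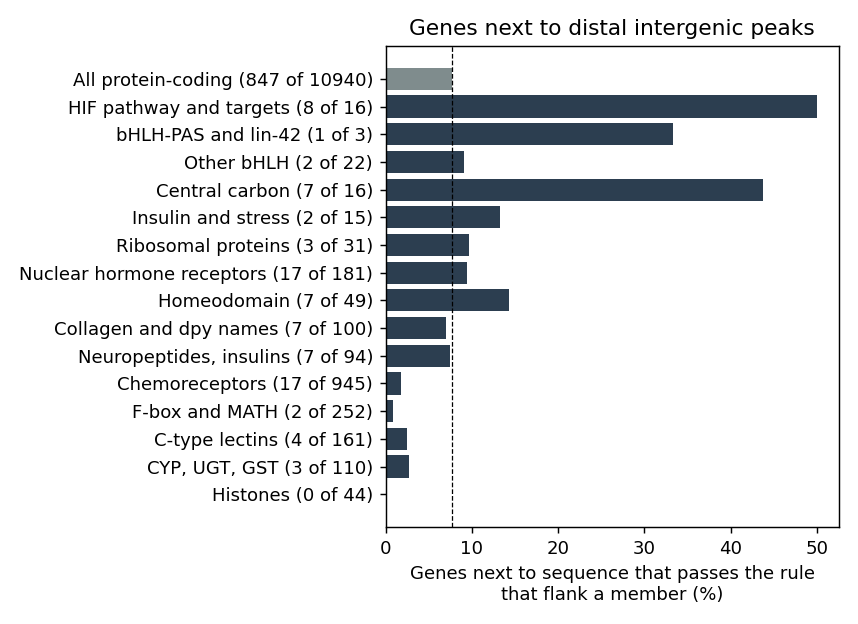
Share of genes that flank a member, as percent of the autosomal genes of each list that stand next to sequence that passes the position rule, with the counts in parentheses; the dashed line is the share over all genes. The lists of hypoxia pathway and central carbon genes reached 50% and 43.8% against 7.74% over all genes, and chemoreceptor, F-box and lectin genes lay below that line.

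The nuclear hormone receptor gene nhr-138 had the strongest member of its family, with a pooled signal of 104 at rank 15 and ranks of 13 and 15 in the replicates. That summit lay 6744 bp upstream of nhr-138, 1 of the longer distances among the strong members. The nhr-88 member, 2554 bp upstream of that gene, had a pooled signal of 47.7 and ranks of 450 and 67. Among the homeodomain genes, ceh-48 had the strongest member, 2172 bp upstream, with a pooled signal of 29.0 and ranks of 287 and 319. The stress regulator gene xbp-1, whose product acts in the unfolded protein response, had a pair of members 38 and 263 bp beyond its 3′ end, with pooled signals of 27.3 and 15.2. Both overlapped the same peak in each replicate, ranked 352 and 339.

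Several strong members lay next to genes of other functions. The member 1037 bp upstream of jmjd-2, which encodes a histone demethylase, had a pooled signal of 75.3 and ranks of 26 and 44 in the replicates. The member between the 3′ ends of gdh-1, which encodes glutamate dehydrogenase, and tgt-1, which encodes a tRNA guanine transglycosylase subunit, had a pooled signal of 71.5 and ranks of 48 and 43, and the palindrome CACGTG stood 8 bp from its summit. The member next to the zinc transporter gene zipt-15 had a pooled signal of 69.9 and ranks of 57 and 37. The member 1929 bp upstream of sup-26, which encodes an RNA-binding protein, had a pooled signal of 51.8 and ranks of 49 and 63. The member between the divergent genes sgn-1 and F07H5.13 had a pooled signal of 49.5 at rank 91 and ranks of 335 and 56. Other members at ranks 107 to 150 stood upstream of mtm-3, which encodes a myotubularin phosphatase, W09D10.4, ubc-8 and casc-3. The genes on the other side of the 20 strongest members, beside those named elsewhere, were spt-4, ippk-1, K01H12.4, hmg-1.1, C17C3.24, ins-13, madf-1, rab-8, F38A6.4, R10E4.3, srw-60, xbx-5, tat-3, Y94H6A.10, D2023.4 and W08E3.4. The replicates placed the ubc-8 member far apart, at rank 1794 in replicate 1 and rank 49 in replicate 2. The member with 4 core matches, from its pair of palindromes, stood between T04C4.3 and fnip-2, which encodes a folliculin-interacting protein, and had a pooled signal of 34.7 and ranks of 162 and 721.

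Non-coding genes lay at many of the members. A non-coding gene other than a pseudogene was within 200 bp of the summit in 133 of 542 members (24.5%, exact 95% interval 21.0 to 28.4), against 19.9% of the 3000 strongest peaks and 17.0% of the weaker autosomal intergenic peaks. Of the bases that pass the position rule, 13.3% lie that close to such a gene. The interval covers counting error only. The summit was inside the non-coding gene in 61 members.

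Unclassified ncRNA genes made up most of these, at 84 members (15.5%), against 13.9% of the 3000 strongest peaks, 6.51% of the weaker intergenic peaks and 4.08% of the bases that pass. Transfer RNA genes were near 17 members (3.14%), against 4.50% of the 3000 strongest and 0.596% of the weaker peaks. Small nucleolar RNA genes, which guide RNA modification, were near 11 members (2.03%), against 2.17% and 0.555%. For these 3 classes the members thus lay close to or below the share over all strong peaks. Long intergenic RNA genes were also near 11 members (2.03%), against 0.567% of the 3000 strongest and 1.15% of the weaker peaks. Genes for piRNAs, the germline small RNAs clustered on chromosome IV, were near 19 members (3.51%), which is above the 1.80% of the 3000 strongest and below the 8.67% of the weaker peaks and the 7.90% of the bases that pass. Pseudogenes, not counted above, were also near 19 members (3.51%), between the 0.933% of the 3000 strongest and the 8.45% of the weaker peaks. No ribosomal RNA gene was near a member, and 0 of 542 allows a share of up to 0.678%.

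Genes for the SL2 spliced leader RNA, which is joined to downstream messages of worm operons, lay at some of the stronger members. The annotation classes them as small nuclear RNA genes. That class was near 3 members (0.554%), about the 0.533% of the 3000 strongest peaks, against 0.103% of the weaker intergenic peaks. The summit inside sls-2.2 had a pooled signal of 71.6 at rank 36 and ranks of 52 and 47 in the replicates, and a second member 204 bp away, with a pooled signal of 31.5, overlapped the same replicate peaks. The 31 bases at the sls-2.2 summit occur at 3 places in the genome. The member 90 bp from sls-2.1, between the convergent genes nep-25 and ZK1248.17, had a pooled signal of 49.8 and ranks of 135 and 75. All 3 summits lacked a core.

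MicroRNA genes were near 5 members (0.923%), against 0.433% of the 3000 strongest and 0.206% of the weaker intergenic peaks. The strongest of the 5 was at cel-mir-52, a gene of the mir-51 family, at rank 285. Its summit lay inside the gene, with a pooled signal of 31.3 and ranks of 594 and 145, and its sequence (IV:14033984-14034084) are printed because they span the microRNA.
cel-mir-52: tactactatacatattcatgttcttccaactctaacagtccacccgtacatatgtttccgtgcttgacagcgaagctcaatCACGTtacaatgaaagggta
The members near cel-mir-238 and cel-mir-53 had pooled signals of 24.3 and 23.9, and their replicate ranks lay apart, at 1895 and 166 for the former and at 514 and 1964 for the latter. Members inside linc-91 and linc-128 had pooled signals of 35.9 and 35.3, and the linc-128 member lay beside cmd-1, the calmodulin gene. The strongest member near a small nucleolar RNA gene, with a pooled signal of 36.1, stood 9 bp from Y23H5B.10 and was ranked 147 and 2051.

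Members stood upstream of genes about as often as weaker intergenic peaks did. The nearest protein-coding start was a median of 2204 bp away, with quartiles of 1463 and 3392 bp and a range of 551 to 18384 bp. The summit was upstream of the gene with the nearest start in 386 members (71.2%) and beyond the start, past that gene's end, in 156, and the upstream share of the weaker intergenic peaks was 67.5%. By distance, 13 members lay up to 1000 bp from the start, 224 lay beyond that and up to 2000 bp, 246 lay up to 5000 bp and 59 lay farther. The rule sets the lower limits, since it bars 1000 bp upstream and 500 bp downstream, so the nearest bin is empty upstream by construction.

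**Figure D2:**
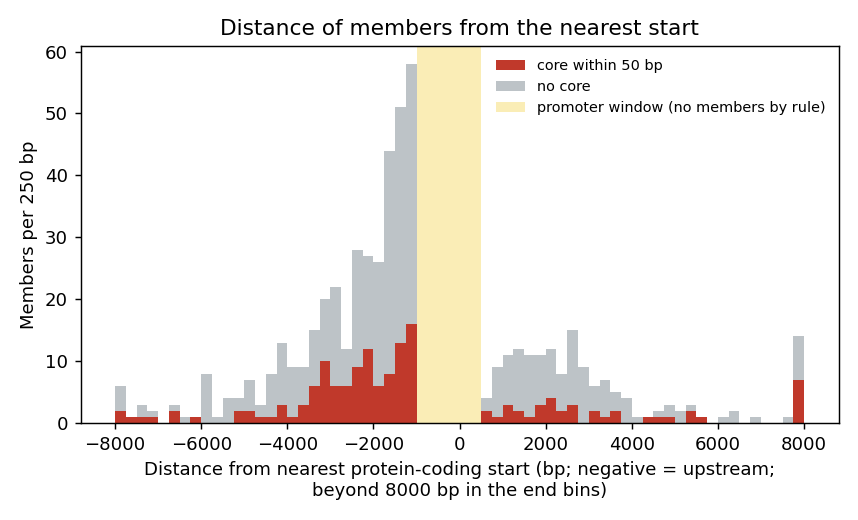
Number of members per 250 bp by distance of the summit from the nearest protein-coding start, with negative values upstream and members beyond 8000 bp in the end bins; red bars are members with a core within 50 bp, grey bars members without, stacked, and the yellow band is the window barred by the rule. Of the 542 members, 386 stand on the upstream side, most of them within a few kb of the barred window.

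The gap between the flanking genes had a median of 5915 bp and a range of 82 to 40322 bp. The flanking genes were in tandem for 316 members (58.3%, exact 95% interval 54.0 to 62.5), divergent for 169 (31.2%, 27.3 to 35.3) and convergent for 56 (10.3%, 7.90 to 13.2), with 1 member at a chromosome end. Of the bases that pass the rule, 53.5% lie between tandem genes, 28.9% between divergent genes and 17.4% between convergent genes, and of the weaker intergenic peaks 55.7%, 30.7% and 13.7% do. Upstream of at least 1 flanking gene, which is any place between tandem or divergent genes, lay 485 members (89.5%), against 86.3% of the weaker peaks and 82.4% of the bases that pass. A core was within 50 bp in 29.4% of the tandem, 27.8% of the divergent and 21.4% of the convergent members.

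The farthest members stood in large gaps. The summit between jac-1 and Y105C5B.1418 was 18384 bp from the nearest start, with a pooled signal of 15.0 and ranks of 1040 and 21088. The next farthest, between Y23H5B.5 and dmsr-2, was 16186 bp from a start. The member between irld-18 and dmd-6, 13354 bp upstream of irld-18, had a pooled signal of 18.8 and ranks of 5730 and 1003. The members between snt-1 and egl-27 and between plg-1 and K01F9.2 were 11558 and 11481 bp from the nearest start.

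By chromosome, 91 members lay on I, 113 on II, 108 on III, 107 on IV and 123 on V. Per megabase of sequence that passes the rule this was 32.4, 31.7, 38.8, 21.4 and 24.0, against 28.1 over the autosomes. The members were flanked by 847 different genes, of which 169 flanked at least 2 members and 44 at least 3. Within 2 kb of another member lay 127 members, in 56 groups, and the largest groups had 4. Such groups were not counted among other peaks, so whether grouping is particular to the members is not known.

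The group between lpin-1, which encodes the lipid phosphatase lipin, and letm-1, which encodes a mitochondrial inner membrane protein, spanned 3448 bp with members ranked 172, 326, 348 and 2716, of which 3 had a core. The group next to the gut esterase gene ges-1 spanned 1487 bp with members ranked 525, 526, 547 and 2426, of which none had a core. The other groups of 4 stood between idpb-4 and mak-1, at ranks 257 to 2403, and between F53F8.6 and Y44A6C.1, at ranks 1316 to 2534. Members of 1 group share their surroundings and, where summits are close, can share a replicate peak. Of all members, 537 had the same width, and the widest was 316 bp. In all, 22 members overlapped another member, 24 shared their replicate 1 peak with another, and 22 shared their replicate 2 peak.

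The strongest members were mostly ranked high in both replicates, and the rest much less often. In both replicates 432 members (79.7%) overlapped a peak by at least 1 bp, 66 (12.2%) overlapped none in replicate 1 and 45 (8.30%) none in replicate 2. Ranked 3000 or better in both replicates were 147 members (27.1%, exact 95% interval 23.4 to 31.1), against 28.1% of the 3000 strongest peaks. The share was 29.7% for peaks in 1 promoter window, 36.6% in at least 2 promoter windows, 18.0% in genes and 31.3% on X. Since the pooled list was called on the same alignments as the replicates, these overlaps are no independent support for a peak. Both replicate lists hold 30000 peaks, so a missing overlap means a place outside that number.

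The share was higher among the members with stronger pooled signal, the value that chose them. It was 88.0% of the 92 members ranked 1 to 530, 31.7% of the 164 members ranked 531 to 1500 and 4.90% of the 286 members ranked 1501 to 3000. In replicate 1, 268 members were ranked 3000 or better (49.4%), in replicate 2 303 (55.9%), and in neither 118 (21.8%). Over the members with a rank, its median was 2079.5 in replicate 1 against 1957 in replicate 2. Of the members with both, 198 were ranked better in replicate 1 and 233 in replicate 2. Spearman's rho between the replicate ranks was 0.221 over the 432 members with both, and 0.248 over 2351 of the 3000 strongest peaks. These are descriptions across peaks, whose signals come from shared libraries. The peaks were chosen by a signal pooled from both replicates, so rho and these shares do not measure replicate agreement over all peaks.

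**Figure D3:**
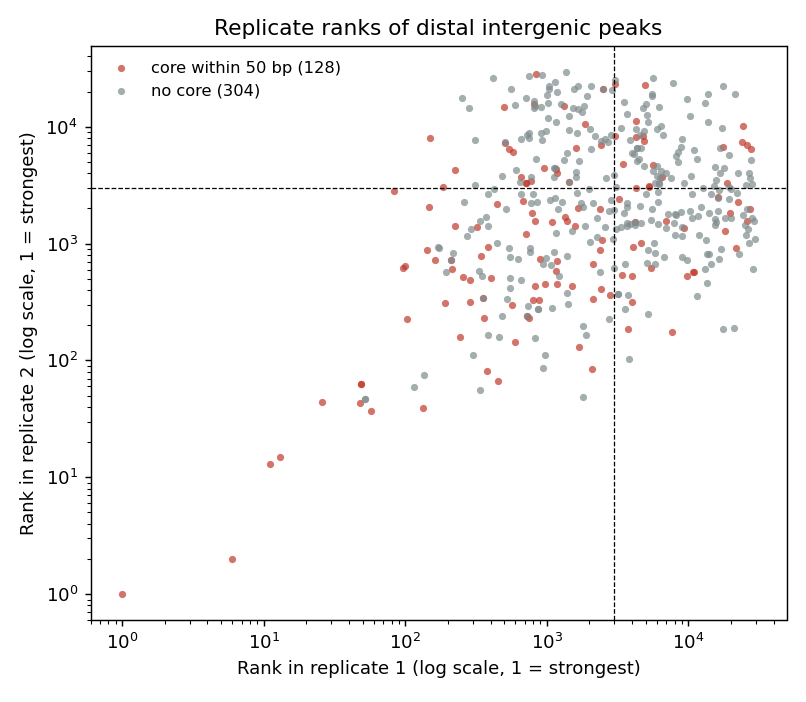
Rank of each member with a peak in both replicates, replicate 1 on the horizontal and replicate 2 on the vertical axis, both logarithmic, with red points for members with a core within 50 bp, grey points for members without, and dashed lines at rank 3000. The strongest members lie near the lower left corner, with egl-9 at rank 1 in both, and the weakest scatter over the full range, with rho = 0.221 over 432 members.

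The deposited list of reproducible peaks, cut at an irreproducible discovery rate (IDR) threshold, holds 530 peaks. These were the 530 strongest of the pooled list, so the 92 members it holds (17.0%) follow from the ranking that chose the members. Over the 3000 strongest peaks the share was 17.7%. Of the 92 members in the list, 11 were not ranked 3000 or better in both replicates. A place in the list thus does not mean a high rank in each replicate.

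The members with the largest rank differences were all weak in the pooled list, with signals of 13.0 to 16.1. The scav-2/T05D4.2 member had a signal of 2.48 in replicate 1 at rank 29481 and of 12.3 in replicate 2 at rank 1087. The aqp-2/C01G6.2 member had a signal of 9.44 at rank 1355 in replicate 1 and of 3.17 at rank 29376 in replicate 2. The Y17D7C.2/asp-19 and K08B12.3/dmd-7 members were likewise higher in replicate 2 (ranks 606 and 1549 against 28603 and 29234), and the usp-5/trak-1 member higher in replicate 1 (845 against 28439). The differences thus ran in both directions.

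The RCGTG core was more frequent at member summits than beside them. It lay within 50 bp of 152 summits (28.0%, exact 95% interval 24.3 to 32.0), against 12.9% and 12.2% in windows of the same length 250 bp to the left and right. Among the 3000 strongest peaks 30.0% had a core, and among the weaker autosomal intergenic peaks 14.0%. By class of the 3000 strongest, the share was 30.3% in 1 promoter window, 37.2% in at least 2 promoter windows, 22.4% in genes and 34.1% on X. The median GC content within 50 bp of the summit moved with these shares, at 42.6% for members, 43.6% for the 3000 strongest and 34.7% for the weaker intergenic peaks. The part of base composition in the difference from the weaker peaks was not tested.

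The core share was higher among the stronger members. It was 54.3% of the members ranked 1 to 530 (50 of 92, exact 95% interval 43.6 to 64.8), 32.3% of those ranked 531 to 1500 (53 of 164, 25.2 to 40.1) and 17.1% of those ranked 1501 to 3000 (49 of 286, 13.0 to 22). The weaker peaks had 14.0%. The bins are cuts of the ranking that chose the members, and differences between them were not tested. The median GC content fell alongside, from 48.5% to 44.6% and 38.6%. Members ranked 3000 or better in both replicates had a core in 44.2%, and the others in 22%. The former also had a higher median pooled signal, 26.0 against 14.9, so this contrast is not separate from that of the rank bins.

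**Figure D4:**
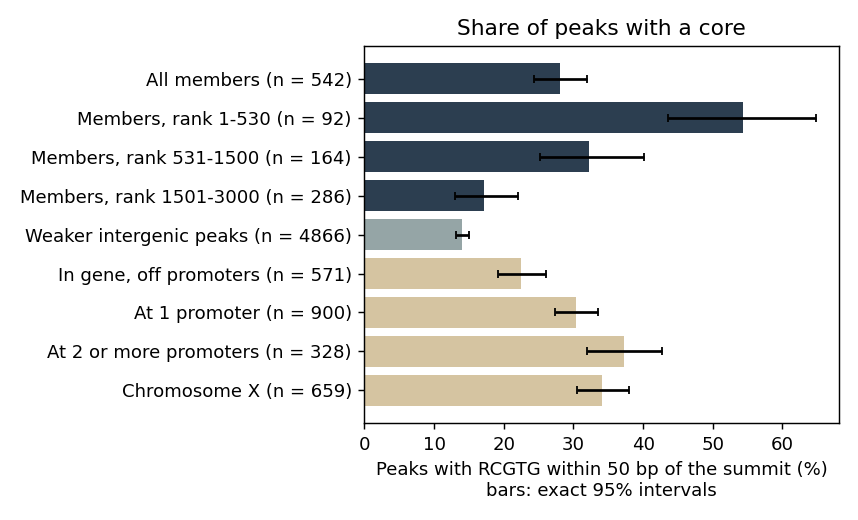
Percent of peaks with RCGTG within 50 bp of the summit, with exact 95% intervals as error bars and the number of peaks in parentheses, for the members, their rank bins, the weaker intergenic peaks and the other classes of the 3000 strongest. Members ranked 1 to 530 lie at 54.3%, all members at 28.0% and the weaker intergenic peaks at 14.0%.

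Where a core was present, its centre lay a median of 20.5 bp from the summit, within 10 bp in 33 members and within 25 bp in 93. The search within 50 bp bounds these distances, and they were not counted for other peaks, so they do not show centring. The 20 bp bin at the summit held 5.90 cores per 100 members, against 7.93 at -20 bp and 9.23 at +20 bp. The core nearest to the summit was ACGTG in 90 (59.2%) and GCGTG in 62 of 152. Of other peaks with a core, ACGTG was nearest in 51.7% among the 3000 strongest and 60.0% among the weaker intergenic peaks. The base before it was T in 49 members (32.2%), against 28.0% and 25.9% in those sets, A in 40, G in 33 and C in 30. At least 2 cores stood within 50 bp in 39 members (7.20%), against 8.57% of the 3000 strongest and 3.02% of the weaker intergenic peaks, with the palindrome counted as 2. TACGTG, a form of the hypoxia response element used in worm studies, was within 50 bp of 5.72% of members, against 4.60% of the 3000 strongest and 2.10% of the weaker intergenic peaks. CACGTG, the E-box, was within 50 bp of 3.69% of members, against 3.87% and 1.85%. GATAA, the letters read by GATA factors, was found in 20.1% of members, 18.8% of the 3000 strongest and 21.4% of the weaker peaks. A match is a run of letters and no measured binding site.

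**Figure D5:**
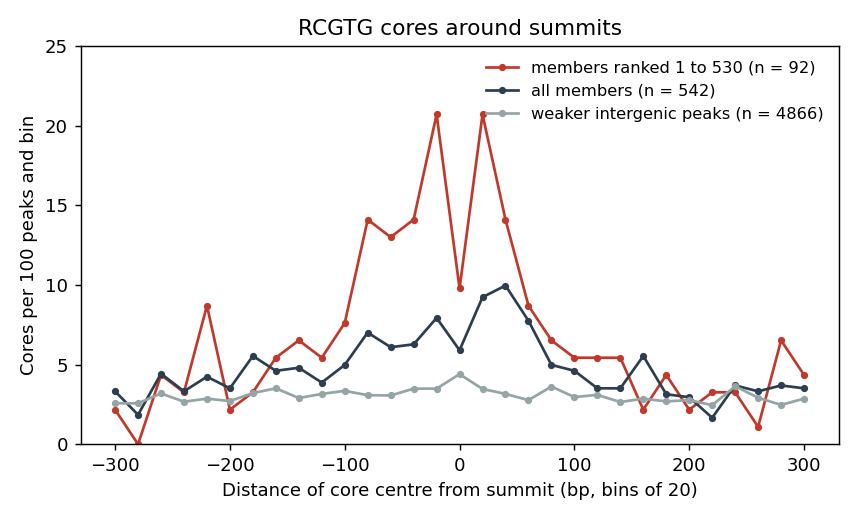
Cores per 100 peaks in bins of 20 bp by distance of the core centre from the summit, for the 92 members ranked 1 to 530, all 542 members and the 4866 weaker intergenic peaks. The members have 9.96 cores per 100 peaks in the bin at +40 bp and 5.90 in the bin at the summit, and the weaker peaks lie lower near the summit.

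Some peaks lay close to a limit of the rule. Just inside rank 3000 stood members next to zfr-1, Y57G11B.5 and Y50D4C.12, at ranks 2976, 2983 and 2991 with a pooled signal of 12.8. Just outside stood autosomal intergenic peaks next to ZC190.4, decr-1.1 and clec-113, at ranks 3006, 3007 and 3016 with 12.7. Within 25 bp of the upstream limit, the members at pck-1, F46C5.10, ahcy-1 and rab-10 lay 1003, 1004, 1011 and 1017 bp upstream of a start, and peaks 995 bp upstream of egl-3, at rank 239, and 978 bp upstream of ppm-2, at rank 447, fell inside the barred window. The strong pck-1 site is thus a member by 3 bp. Within 25 bp of a protein-coding gene's end lay 5 members, of which the nearest were 2 bp from F11G11.5, with a pooled signal of 13.7, and 7 bp from flp-14, with 14.9.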

How the data were processed

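The authors deposited narrowPeak lists on ce11 (also WBcel235), called per replicate and on the pooled replicates against a control, and a list of reproducible peaks, per the labels and the deposited file descriptions. The pooled list is labelled as peaks and background, the input from which the reproducible peaks were cut. No source used here names the caller, its settings or a scaling. The deposited signal of each peak was used for ranking, and the deposited −log10 q-value, at its maximum for 928 of the 30000 pooled peaks, was used only to re-rank the peaks in an alternative. Depth is unknown.

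The rule was read as the 3000 strongest peaks first and the position filter second. Protein-coding and non-coding genes came from Ensembl release 115 and sequence from RefSeq. Cores were searched on both strands within 50 bp of the summit. Python 3.11.15, numpy 2.4.6, pandas 2.3.3, scipy 1.17.1 and matplotlib 3.10.9 were used, and the scripts were tested on simulated data. Shares carry exact Clopper-Pearson 95% intervals, which cover counting error only, and no hypothesis test was run. Neighbouring members are not independent, which these intervals ignore.

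The members and the gene lists were chosen with earlier results of these data known. Named genes were drawn from those that flank the 20 strongest members, the strongest members of each list or class of non-coding gene, the farthest members, those with the largest rank differences, those at a limit of the rule, and the largest groups. The cysl-3, sqrd-1, fnip-2, fbp-1, pyk-1 and idh-1 members, the weaker members at egl-9 and hif-1, the member nearest to a gene's end (F11G11.5), and dpy-19, hlh-11, nhr-46 and swan-1 were named after their values were seen. The alternatives tried are other numbers of peaks, other windows, other distances for cores, non-coding genes and replicate overlap, ranking by q-value, the other reading of the rule, 1 member per 2 kb, leaving out summits inside any annotated gene or peaks up to 25 kb from the unc-119 or aha-1 gene, and each replicate's list alone.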

Additional observations from a re-analysis of the deposited data

How the results depend on the processing

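Of 90 alternative values, 67 stayed within the limits set for no change and 23 moved. Taking the 2000 strongest peaks gave 344 members, with a core in 33.4%, 40.4% ranked 3000 or better in both replicates and 26.7% in the reproducible list. Taking 4000 gave 21.1% and 12.8% for the latter pair. A window of 500 bp on both sides gave a median distance to the nearest start of 1713 bp and 35.4% between divergent genes, and a window of 2000 bp upstream gave 349 members and 2996 bp. Leaving out summits inside any annotated gene gave 15.3% near a non-coding gene. Reading the rule as the strongest 3000 that pass the position filter gave 3000 members, with a core in 17.1%, a non-coding gene near 18.3%, a median distance of 2378 bp, 5.30% ranked 3000 or better in both replicates and 3.07% in the reproducible list. A core was found in 15.9% within 25 bp and in 42.3% within 100 bp. The summit was inside the non-coding gene in 11.3%, and such a gene was within 500 bp in 29.5%. Asking for replicate summits within 100 bp gave 19.7% ranked 3000 or better in both. The cause of these moves was not tested, beyond what each setting counts. With the rule applied to 1 replicate's list alone, members numbered 470 to 510 and the core share was 25.9% to 27.9%. The non-coding share was 21.6% to 26.8%, the median distance 2305 to 2374 bp and the divergent share 31.6% to 32.6%. The share in both replicates was 27.8% to 30.2% and the reproducible share 17.3% to 18.3%. Here the rank in the own replicate is 3000 or better by construction, so the former share rests on the other replicate. The latter was counted by overlap with a reproducible peak, and in the main result by identity. Both were counted among the 67, though neither is measured as in the main result. Of the members, 259 overlapped a peak chosen from replicate 1 alone and 296 from replicate 2 alone. An alternative that counts only starts of protein-coding transcripts, and the core share in members without a non-coding gene, were added after seeing the data and moved no value past those limits. Ranking by q-value (548 members) and 1 member per 2 kb (474) moved none of the 7 values past those limits either. Dropping any peak up to 25 kb from the unc-119 or aha-1 gene left the same 542 members, since none lay that close. Its 7 values, counted among the 67, therefore could not move. No paired analysis was possible because the study has 1 group.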

Other observations

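Runs of alternating G and A were frequent at the members and are described here after a count of all sequences of 6 bases, chosen after seeing the data. GAGAGA or its reverse complement TCTCTC stood within 50 bp of 137 member summits (25.3%), against a mean of 9.32% in the windows 250 bp to each side, 19.6% of the 3000 strongest and 8.55% of the weaker autosomal intergenic peaks. The longer GAGAGAGA was in 41 members (7.56%, exact 95% interval 5.48 to 10.1), 4.60% of the 3000 strongest peaks and 2.03% of the weaker ones.

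GTCTC, seen in the sequence at the egl-9 summit, was within 50 bp of 138 members (25.5%), against 14.0% and 11.6% in the windows to the left and right and 13.5% of the weaker intergenic peaks. It was in 27.0% of the 3000 strongest peaks and in 46.7% of the members ranked 1 to 530. Members with a core had it in 28.9% and members without in 24.1%. A core, GTCTC or GAGAGAGA stood within 50 bp in 259 members (47.8%), against 49.5% of the 3000 strongest peaks, 26.4% of the weaker ones and 26.0% and 22.3% in the windows to the left and right. GC content is higher at the members than at the weaker peaks, and its part in these shares was not tested.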
